A study of Mus musculus with 9 samples.

Results

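CD1d and the genes that load it with lipid were read in whole skin of mice lacking Cd1d and of wild-type mice. CD1d resembles an MHC class I molecule, but its groove holds lipids, which it displays to natural killer T (NKT) cells. It takes up a first lipid in the endoplasmic reticulum, travels to the cell surface, and is drawn back through endosomes to the lysosome, where small lipid transfer proteins exchange that lipid for others. In skin, keratinocytes, dendritic cells and macrophages are known to carry CD1d.

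The genes were a fixed set of 10 chosen by name: Cd1d1, Cd1d2, Psap, Gm2a, Npc1, Npc2, Hexa, Ap3d1, Ap3b1 and Mttp. Every probe set annotated to 1 of them was taken, which gave 14 of the 12488 probe sets on the array, among them 1 shared by Cd1d1 and Cd1d2. The array, an Affymetrix MG-U74 GeneChip, reads a gene through sets of short oligonucleotide probes, and the deposited signal is in arbitrary units. Of the 14 probe sets, 11 passed the filter on low signal, which kept a probe set when 4 or more of the 9 arrays gave it a signal reaching that array's own 40th percentile (43.4 to 53.3). All 11 reached that level on all 9 arrays. The other 3, those of Cd1d2 alone and of Mttp and the second one of Hexa, reached it on 0 arrays.

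Skin was taken from 5 knockout mice (CD1d-/-, on the C57BL/6 background) and 4 wild-type mice (CD1d+/+, C57BL/6), none of them irradiated with UVB, and matched for age and sex. Ages, sexes and the part of the gene that was deleted are not given in the sources used here. Each mouse had its own RNA sample and array, so the spread between arrays holds the spread between animals. Between arrays the signals of the 7658 kept probe sets correlated at 0.89 to 0.97 (Pearson r across probe sets, which are not independent replicates).

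Of the keratinocyte markers, 11 of the 14 on the array were kept. Krt10, a keratin of the upper epidermis, averaged 6835 ± 845 in knockout skin and 6333 ± 403 in wild-type skin (SD, n = 5 and 4). The probe sets of Krt5, Krt14 and Krt15, keratins of the basal layer, read below the filter, so no level of these keratins was measured. The growing hair follicle markers differed widely among the mice. All 15 kept ones had higher values in knockout skin, by a median of 1.52 on the log2 scale, and 0 passed limma's test after adjustment. Their per-mouse median was high in knockout 1, 2 and 5. The summed signal of the 15 kept ones ran from 2166 to 33324 in knockout skin and from 1828 to 3807 in wild-type skin. Whole skin was measured, so fewer cells of a type and less RNA per cell cannot be told apart.

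Regulatory sequence was at hand for 7 of the 10 genes as RefSeq promoters of build GRCm38.p6, 250 bases before to 50 after the start. Cd1d1, Cd1d2 and Npc1 had no entry. Lysosomal genes are known to be driven in common by TFEB, a transcription factor that binds an element built on CACGTG. That hexamer, searched on both strands, stood in 0 of the 7 promoters and in 7.24% of all 27025 promoters. The longer TCACGTG, which contains it, stood in 0 of the 7 and in 3.83% of all. The GC box GGGCGG, the site of the general activator Sp1, stood on 1 strand or the other in 6 of the 7 (all but Ap3d1) and in 35.9% of all promoters. The GC box was added to the search after the sequences were seen. These are matches of letters and say nothing of binding. The promoters of the 2 partners whose probe sets are described most closely below, Psap and Hexa, are shown, with GC boxes in capitals. The Psap promoter has 1 and is 62.0% G and C, the Hexa promoter has 3 and is 53.3% G and C, and the median of all promoters is 52.7%. The 7 promoters ran from 53.3% to 67.7%. The GC box is made of G and C alone, and its comparison with all promoters took no account of this share.
Psap promoter, chr10:60277378-60277677, plus strand: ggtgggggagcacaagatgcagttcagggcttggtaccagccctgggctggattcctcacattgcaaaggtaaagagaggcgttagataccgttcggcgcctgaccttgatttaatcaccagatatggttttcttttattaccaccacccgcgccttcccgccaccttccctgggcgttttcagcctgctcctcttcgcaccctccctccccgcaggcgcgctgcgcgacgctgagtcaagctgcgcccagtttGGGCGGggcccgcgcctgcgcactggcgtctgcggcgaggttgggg
Hexa promoter, chr9:59539290-59539589, plus strand: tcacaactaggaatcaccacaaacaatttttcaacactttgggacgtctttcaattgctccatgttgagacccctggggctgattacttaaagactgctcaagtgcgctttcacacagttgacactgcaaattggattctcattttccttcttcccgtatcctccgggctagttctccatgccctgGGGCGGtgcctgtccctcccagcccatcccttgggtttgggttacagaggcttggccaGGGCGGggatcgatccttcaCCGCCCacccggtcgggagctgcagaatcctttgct

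No loading gene, and neither Cd1d1 nor the shared Cd1d probe set, passed the test between the genotypes. The clearest separations by mouse were the lower signal of Cd1d1 and the higher signal of 1 of the Psap probe sets in knockout skin. Differences are log2 signal, knockout minus wild type, tested with limma over all 7658 kept probe sets, two-sided, with Benjamini-Hochberg adjustment and a threshold of adjusted p 0.05. In that test 0 of the 11 kept probe sets passed, and 0.0522% of all kept probe sets did. At an unadjusted p under 0.05 limma marked 4 of the 11, which are 3 with lower and 1 with higher signal in knockout skin, beside 9.4% of all kept probe sets (3.96% lower, 5.45% higher). A two-sample test with unequal variances marked 5 of the 11 at that level, beside 7.59% of all kept probe sets, and 0 after adjustment. The groups did not overlap for 2 of the 11, Cd1d1 and probe set C of Psap, and they did not overlap for 3.21% of all kept probe sets (1.38% lower, 1.83% higher).

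**Figure D1:**
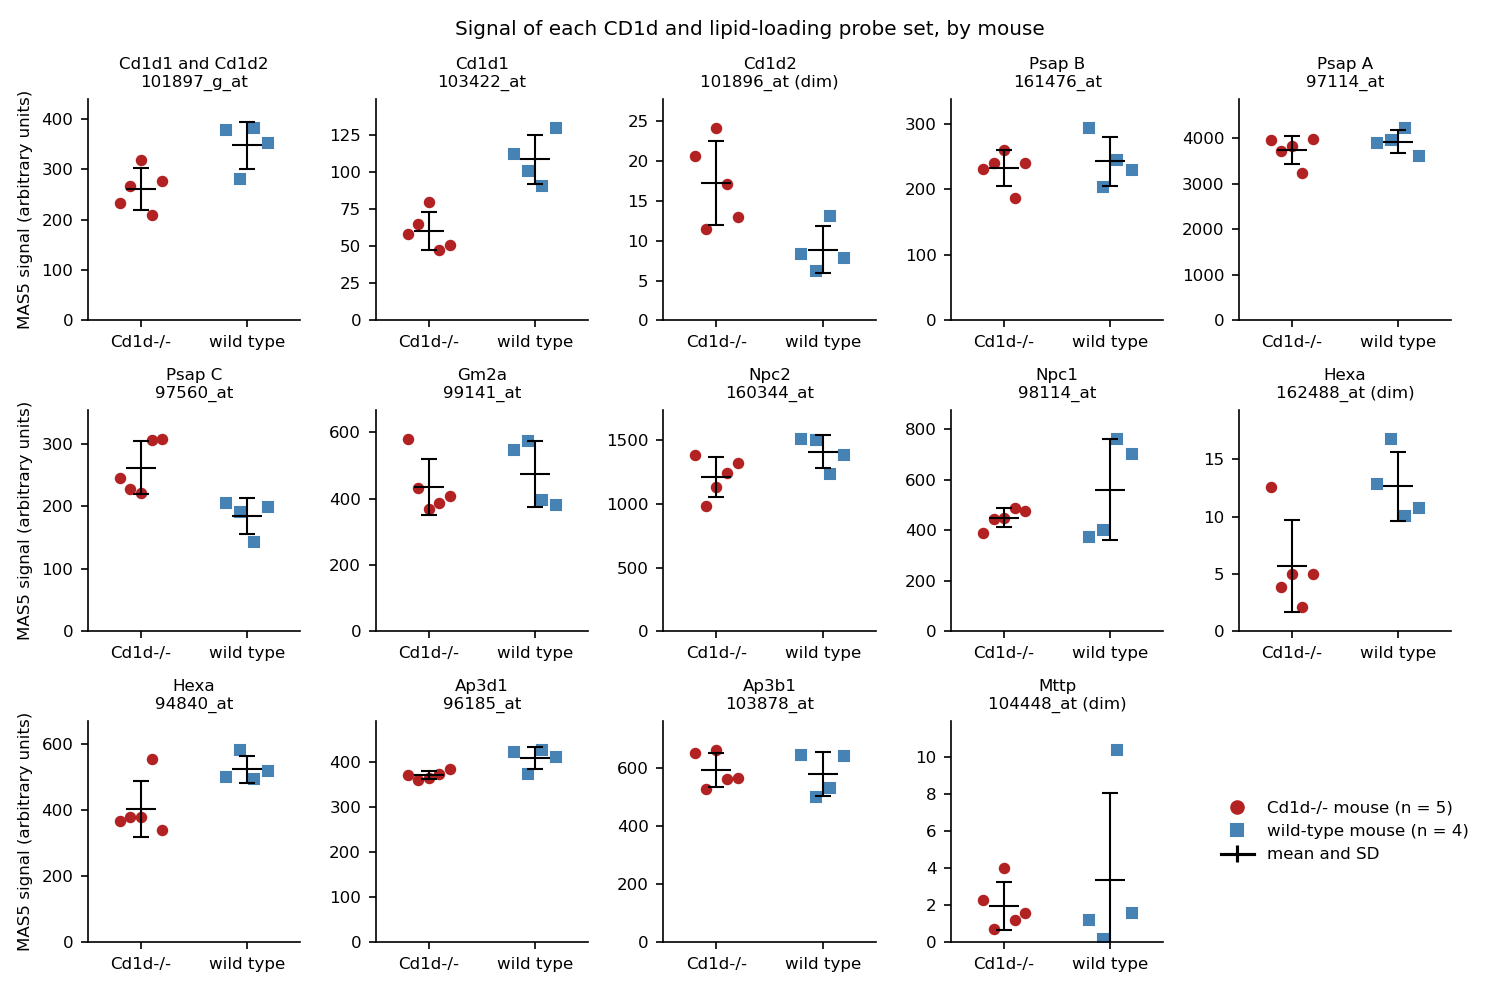
MAS5 signal (arbitrary units, linear axis from 0) of each of the 14 probe sets in the 5 knockout mice (red circles) and the 4 wild-type mice (blue squares), with mean and SD; the lower bar of wild-type Mttp ends at the axis. Cd1d1 and Psap C separate the groups, in opposite directions, and panels marked dim lay below the filter on all 9 arrays.

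The sample labels name the knocked-out gene as Cd1d and do not say whether Cd1d1, Cd1d2 or both were deleted. Cd1d1, on chromosome 3, encodes the CD1d heavy chain. Its own probe set read 58.2, 65, 79.6, 47.6 and 51.1 in knockout 1 to 5, against 112.4, 101.1, 91 and 130 in wild type 1 to 4. No knockout mouse reached the lowest wild-type mouse, and none was at 0. The fold was 0.55 (95% interval 0.41 to 0.74, limma adjusted p = 0.242), the 31st smallest p of the 7658. Where the probes lie relative to the deletion is not known here, so the remaining signal does not measure intact transcript. The knockout values were close to the filter level, where MAS5 signals carry a large relative error.

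Cd1d2 is a close copy of Cd1d1 that neighbours it on chromosome 3, and the RefSeq table of the C57BL/6J genome lists it as a transcribed pseudogene. The probe set shared by both genes read 232.5, 266.2, 318.6, 209.9 and 276.8 in knockout 1 to 5, against 377.9, 281.6, 382.8 and 351.6 in wild type 1 to 4. The groups overlapped, because knockout 3 lay above wild type 2. The fold was 0.75 (95% interval 0.59 to 0.94, limma adjusted p = 0.442). The probe set specific to Cd1d2 read 20.7, 11.5, 24.2, 17.1 and 13 in knockout 1 to 5, against 8.4, 6.2, 13.1 and 7.8 in wild type 1 to 4. These values lay below the filter throughout. In the fit without a filter the log2 difference of this probe set was 0.96 (SE 0.37, limma adjusted p = 0.533), opposite in sign to the other Cd1d probe sets, and it was 0.16 with a pseudocount of 64. Signal of a shared sequence cannot be assigned to either gene, and no order was drawn from a signal this low.

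Psap encodes prosaposin, the precursor that is cut in the lysosome into the saposins, which lift lipids out of membranes and pass them to CD1d and to hydrolases. It was read by 3 probe sets, called probe sets A, B and C here in order of their mean signal, and they disagreed. Probe set A read 3963.8, 3726.2, 3837.8, 3229.5 and 3987.3 in knockout 1 to 5, against 3908.9, 3966.9, 4232.7 and 3612.7 in wild type 1 to 4. The groups overlapped, with a fold of 0.95 (95% interval 0.82 to 1.10, limma adjusted p = 0.848). Probe set B averaged 232 ± 27.4 in knockout skin and 242 ± 37.8 in wild-type skin (SD, n = 5 and 4), with a fold of 0.96 (95% interval 0.77 to 1.19, limma adjusted p = 0.926).

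Psap probe set C read 244.9, 228.5, 222.1, 306.6 and 308.2 in knockout 1 to 5, against 205.6, 191.1, 142.8 and 199.1 in wild type 1 to 4. Here each knockout mouse lay above each wild-type mouse, with a fold of 1.42 (95% interval 1.11 to 1.81, limma adjusted p = 0.401). The Psap probe sets were also set against each other within each array, as the ratio of their signals. These ratios were chosen after probe set C was seen to separate the groups, so they are a description with no test. The ratio of probe set C to A was 6.18%, 6.13%, 5.79%, 9.49% and 7.73% in knockout 1 to 5, against 5.26%, 4.82%, 3.37% and 5.51% in wild type 1 to 4. The ratio was higher in all 5 knockout mice than in any wild-type mouse, with a log2 difference of 0.57. Against B the log2 difference of C was 0.57 as well, with overlapping groups. The remaining pair, B to A, differed by 0.0079. Between the arrays whose deposited values carry 7 decimals (2 knockout, 3 wild type) the ratio of C to A differed by 0.46, and by 0.52 between those with 9 decimals (3 knockout, 1 wild type), on the log2 scale. What transcripts each probe set reads was not tested.

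**Figure D2:**
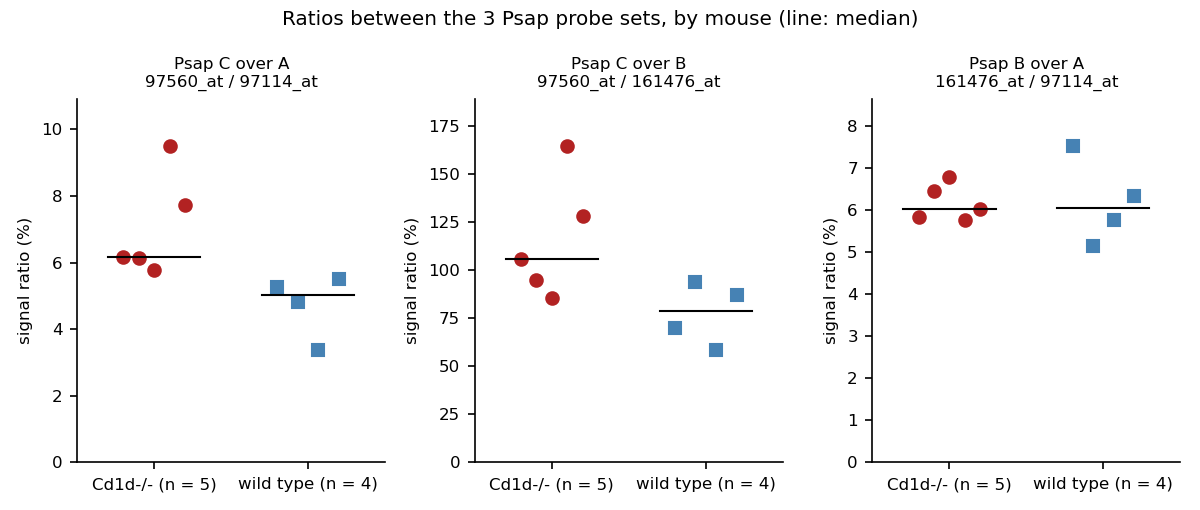
Ratio in percent between the signals of the 3 Psap probe sets, taken 2 at a time within each array, in the 5 knockout mice (red circles) and the 4 wild-type mice (blue squares); lines are medians. Of the 3 ratios, that of C to A separates the groups, from 5.79% upward in knockout skin and up to 5.51% in wild-type skin.

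Gm2a encodes the GM2 activator, a lysosomal lipid transfer protein that serves both hexosaminidase A and the loading of CD1d. Its probe set read 579.7, 431.2, 369.2, 385.7 and 407.5 in knockout 1 to 5, against 544.6, 574, 395.6 and 381.8 in wild type 1 to 4. High values (knockout 1, wild type 1 and 2) and low values occurred in both genotypes. The log2 difference was -0.12 (SE 0.18, limma adjusted p = 0.860), and leaving out 1 array moved it from -0.23 (without knockout 1) to -0.02 (without wild type 2). Between the 7-decimal arrays it was 0.18 and between the 9-decimal arrays -0.49, so its direction was not settled.

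Hexa encodes the alpha subunit of hexosaminidase A, the lysosomal enzyme that removes a terminal sugar from gangliosides and related glycolipids. Its kept probe set read 367.9, 381, 381.1, 554.6 and 340.8 in knockout 1 to 5, against 501.1, 583.4, 495 and 519.4 in wild type 1 to 4. Of the 5 knockout mice, 4 lay below all wild-type mice, and knockout 4 lay within their range. With 1 probe set a gene, the brightest, this was the largest difference among the 7 kept partner genes (Psap probe set C differed more), with a fold of 0.76 (95% interval 0.61 to 0.96, log2 -0.39, limma adjusted p = 0.461). Without knockout 4 the log2 difference was -0.51 (limma adjusted p = 0.206). Fitted together with each array's hair follicle marker median, the log2 difference of Hexa was -0.23 (limma adjusted p = 0.568). That median was lowest in knockout 4 of all mice, at -1.69. The part of the hair follicle in this result was not tested further. The second Hexa probe set read only 2.1 to 12.6 in knockout skin and 10.1 to 16.8 in wild-type skin, below the filter.

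NPC1 and NPC2 carry cholesterol out of the lysosome, and loss of either is known from mouse and human disease to fill lysosomes with lipid. Npc2, the soluble carrier, read 1378, 982.2, 1132, 1241.8 and 1318.3 in knockout 1 to 5, against 1508.2, 1499.2, 1232.3 and 1381.5 in wild type 1 to 4. The groups overlapped, with a fold of 0.86 (95% interval 0.71 to 1.04, limma adjusted p = 0.615). Npc1, the membrane protein that takes cholesterol over from it, read 389.4, 446.1, 447.3, 489 and 476.9 in knockout 1 to 5, against 374, 402.3, 761.6 and 702.5 in wild type 1 to 4. The knockout mice lay close together (SD 8.57% of the mean), while wild type 1 lay below them, wild type 2 near their lower end and wild type 3 and 4 above all of them (SD 35.8% of the mean). The log2 difference was -0.25 (SE 0.21, limma adjusted p = 0.762), and leaving out 1 array moved it from -0.42 (without wild type 1) to -0.077 (without wild type 3). Between the 9-decimal arrays, whose 1 wild-type mouse is wild type 1, it was 0.33.

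AP-3 is the adaptor that reads a tyrosine signal in the tail of mouse CD1d and sends it to the lysosome. Ap3d1, its delta subunit, read 372.4, 360.4, 364.6, 373.6 and 385.5 in knockout 1 to 5, against 423.2, 373.2, 427.4 and 411.1 in wild type 1 to 4. Of the wild-type mice 3 lay above all knockout mice and wild type 2 lay among them. The fold was 0.91 (95% interval 0.78 to 1.07, limma adjusted p = 0.721). Ap3b1, the beta subunit that is mutated in the pearl mouse, read from 528.1 to 662.4 in knockout skin and from 499 to 643.6 in wild-type skin. Its fold was 1.03 (95% interval 0.85 to 1.25, limma adjusted p = 0.951).

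MTTP, the microsomal triglyceride transfer protein, places lipids into CD1d in the endoplasmic reticulum and is best known for lipoprotein assembly in liver and intestine. Its probe set read 2.3, 0.7, 4, 1.2 and 1.6 in knockout 1 to 5, against 1.2, 0.2, 10.4 and 1.6 in wild type 1 to 4. All 9 values lay far below the filter, so no level or difference was measured for Mttp. Apob, its partner in lipoprotein assembly, averaged 12.0 in knockout skin and 12.6 in wild-type skin, also below the filter.

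**Figure D3:**
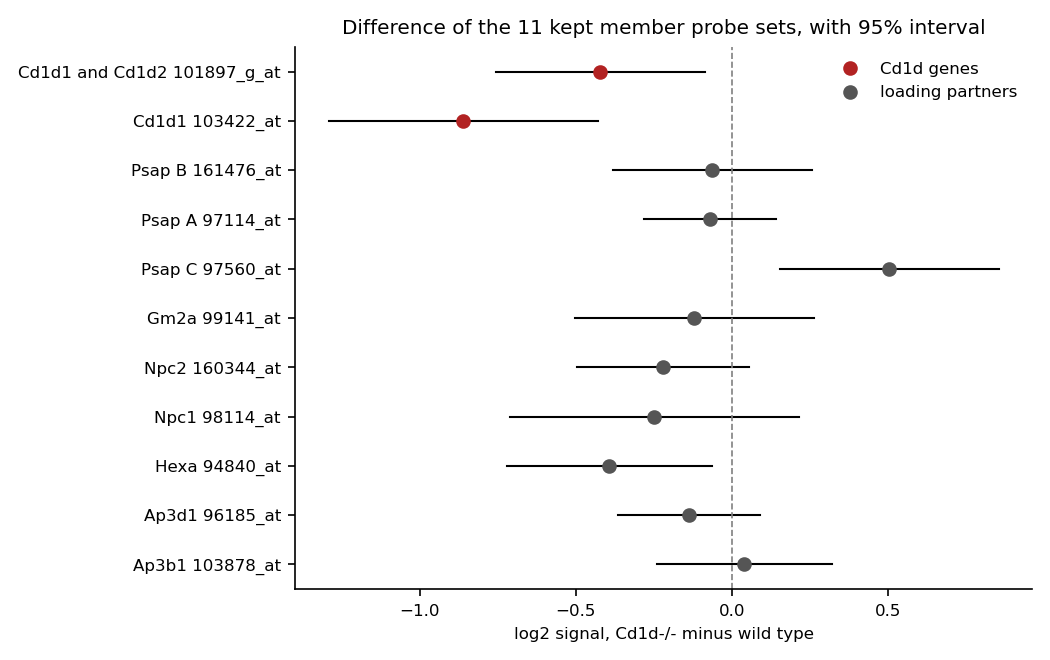
Log2 signal difference, knockout minus wild type, with its 95% interval from limma, for the 11 kept probe sets, Cd1d genes in red and loading partners in grey. The intervals of Cd1d1, the shared Cd1d probe set, Psap C and Hexa leave out 0 before adjustment, and none passed after it.

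Most loading partners had slightly lower values in knockout skin. With 1 probe set a gene, the brightest, 7 partners were measured, and 6 of the 7 had a lower value in knockout skin, where 48.7% of all 5855 genes did. Their median log2 difference was -0.14 without Cd1d1, and the median of all genes was 0.01. With Cd1d1 added, 7 of 8 were lower and the median was -0.18. The count of lower partners without Cd1d1 was between 5 and 7 of 7 under each other setting that used the same 7 genes. Psap was counted by probe set A (log2 -0.07), while its probe set C was higher by 0.50. Of the 9 kept partner probe sets, 7 had lower values and 2 higher. No test was made over the set.

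Per mouse, the centred median of the 7 partners was 0.05, -0.12, -0.11, -0.05 and -0.02 in knockout 1 to 5, against 0.14, 0.05, 0.14 and 0.10 in wild type 1 to 4. Knockout 1 and wild type 2 were nearly level, at 0.0534 and 0.0546, and the other mice separated by genotype. The Cd1d1 probe set minus this partner median was -0.46, -0.13, 0.16, -0.65 and -0.58 in knockout 1 to 5, against 0.40, 0.33, 0.10 and 0.65 in wild type 1 to 4. Knockout 3, the knockout mouse with the highest Cd1d1 signal, lay above wild type 3 on this measure.

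Markers of macrophages and dendritic cells lay lower as well. All 17 kept ones of the 21 on the array had lower values in knockout skin, where 48.7% of all genes did, with a median of -0.34. After adjustment 0 passed limma's test. At an unadjusted p under 0.05 limma marked 8, all lower, beside 3.96% of all kept probe sets with lower values. Their summed signal ran from 11881 to 14482 in knockout skin and from 14801 to 17759 in wild-type skin, without overlap, a sum in which bright probe sets weigh most. The per-mouse median of the same markers overlapped, at -0.23 to 0.07 in knockout skin and 0.04 to 0.21 in wild-type skin, with knockout 5 above wild type 4. None was at 0, but the scavenger receptor Marco averaged only 5.06 in knockout skin and 4.23 in wild-type skin. These cells are rich in lysosomes, and their part in the partner values was not tested.

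**Figure D4:**
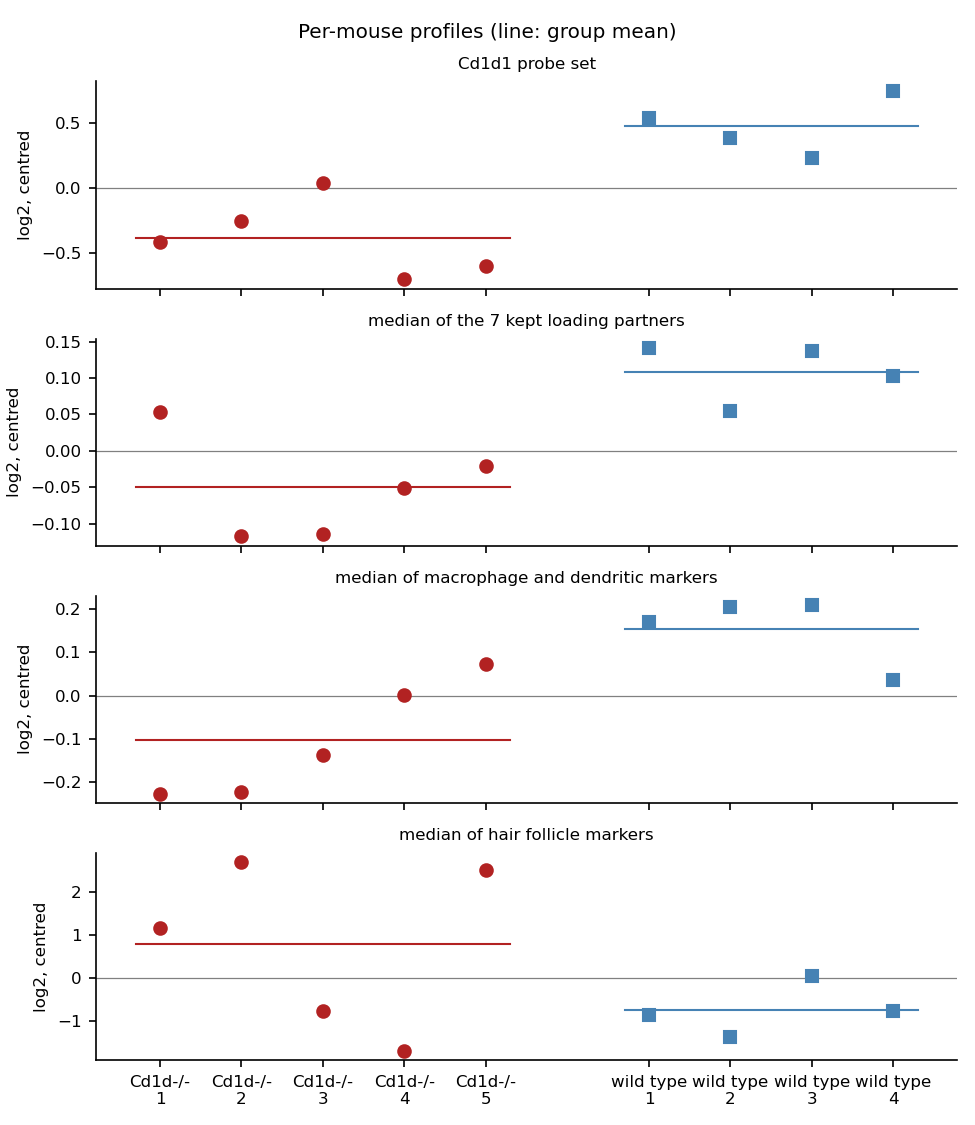
Log2 signal centred on the mean of the 9 arrays for the Cd1d1 probe set and for the median of the 7 kept loading partners, the macrophage and dendritic cell markers and the hair follicle markers, in each knockout (red circles) and wild-type mouse (blue squares), with group means as lines; vertical scales differ. Partner medians span -0.12 to 0.05 in knockout skin and 0.05 to 0.14 in wild-type skin, and hair follicle medians span -1.69 to 2.70 in knockout skin and -1.38 to 0.04 in wild-type skin.

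The genes that work beside these partners were read from lists by role, and in none of the lists did a gene pass limma's test after adjustment. In the assembly group, B2m, the light chain that CD1d shares with MHC class I molecules, averaged 3791 ± 493 in knockout skin and 4805 ± 315 in wild-type skin (SD, n = 5 and 4), without overlap (-0.35 on the log2 scale, limma adjusted p = 0.399). By their brightest probe sets all 4 measured genes of that group were lower, the others being Tapbp (-0.27), Canx (-0.12) and Pdia3 (-0.06), which fold and load class I molecules. A further kept probe set of Tapbp differed by 0.07 and one of Canx by 0.09. Of 6 genes of the invariant chain and the endosomal proteases, 5 were lower, with Ctss, the protease that trims the invariant chain, at 1333 ± 220 in knockout skin against 1901 ± 225 in wild-type skin (-0.52 on the log2 scale, limma adjusted p = 0.336). Ctss is also 1 of the 17 kept macrophage and dendritic cell markers. Ctsl, a related protease that NKT cell selection in the mouse thymus is known to need, averaged 1347 ± 156 in knockout skin against 1324 ± 161 in wild-type skin (log2 0.02).

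Lysosomal hydrolases had lower values in 12 of 15 genes, beside 48.7% of all genes, with a median of -0.06. At an unadjusted p under 0.05 limma marked 3 of them, all lower, beside 3.96% of all kept probe sets with lower values. These were Gaa, the glycogen-splitting glucosidase (log2 -0.46), Arsa, which desulfates sulfatide (-0.35), and the mannosidase Man2b1 (-0.25). Their limma adjusted p values were 0.471, 0.507 and 0.527. Lysosomal membrane proteins and proton pump subunits were lower in 14 of 22 genes, with a median of -0.08. Lamp2, a main glycoprotein of the lysosomal membrane, was the 1 gene of the list with a higher value at an unadjusted p under 0.05, at 1267 ± 164 in knockout skin and 916 ± 274 in wild-type skin (0.52 on the log2 scale, limma adjusted p = 0.471). A second kept probe set of Lamp2 averaged 238 in knockout skin and 251 in wild-type skin (-0.04 on the log2 scale, limma adjusted p = 0.966). Lamp1, the paralog of Lamp2, had a log2 difference of -0.14. The groups did not overlap for 3 genes of this list, all lower, beside 1.38% of all kept probe sets with lower values. They were the metal transporter Slc11a1 (-0.34), the pump accessory protein Atp6ap1 (-0.33) and Laptm4a (-0.29). Their limma adjusted p values were 0.463, 0.417 and 0.441.

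Among the sorting genes values lay on both sides of 0. The other AP-3 subunits measured were Ap3s2 (log2 0.37), Ap3m1 (0.03) and Ap3s1 (-0.08), and their limma adjusted p values were 0.551, 0.984 and 0.885. Of the BLOC, HOPS and Rab genes that act with AP-3, 8 of 10 were higher and 2 lower, where 48.7% of all genes were lower. Their median was 0.05, and Rab7, a GTPase of late endosomes, differed by 0.40 (limma adjusted p = 0.487). Lyst, also in this list, differed by 1.21 (SE 0.53, limma adjusted p = 0.517). Its groups overlapped, and it averaged only 35.6 in wild-type skin, against 64.1 in knockout skin. Of the AP-1 and AP-2 subunits 5 of 8 were higher, with Ap2a1 at 0.41 and Ap2a2 at -0.27. A second kept probe set of Ap2a2 differed by 0.11. Of 10 lipoprotein and cholesterol genes 8 had lower values, and the median was -0.17. Pltp, which transfers phospholipids between lipoproteins, averaged 1738 ± 325 in knockout skin and 2250 ± 310 in wild-type skin (-0.38 on the log2 scale, limma adjusted p = 0.458).

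**Figure D5:**
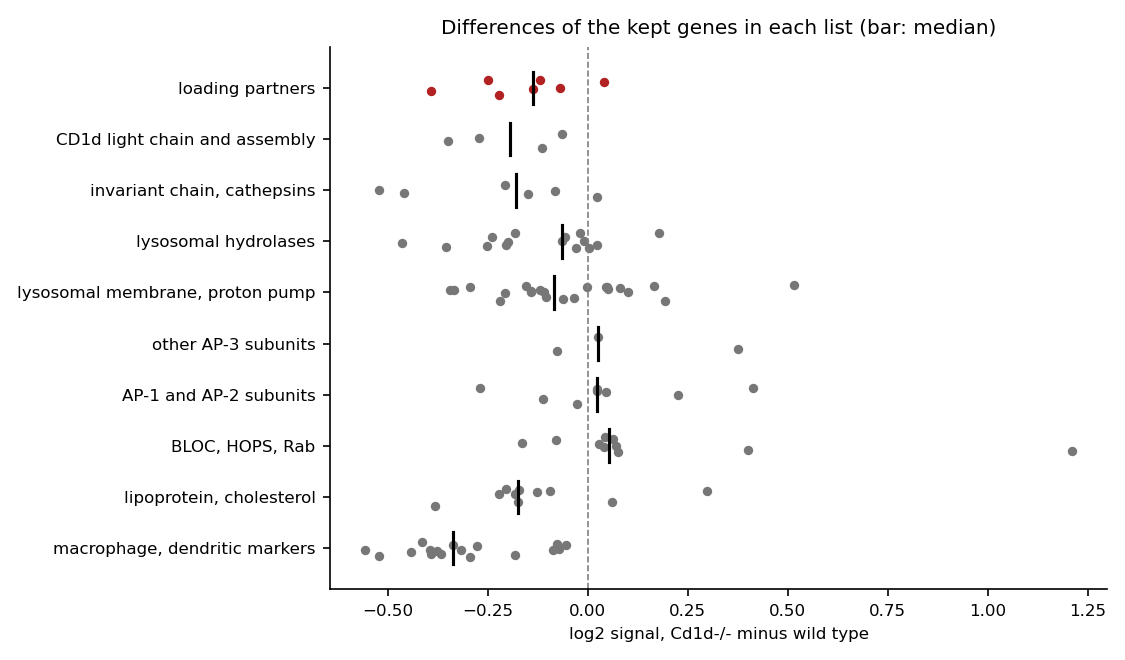
Log2 difference, knockout minus wild type, of each kept gene in the loading partners (red) and in 9 lists of related genes (grey), with the list median as a bar. The partner median of -0.14 lies between those of the hydrolases (-0.06) and of the macrophage and dendritic cell markers (-0.34), and single genes spread to both sides of 0 in most lists.

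Likeness to Cd1d1 was measured as the root mean square difference of centred log2 signal over the 9 arrays, among 6909 other probe sets of 1 gene. The closest were Adh7 (0.24), H2-M3 (0.25), Tpsb2 (0.25), Zbtb22 (0.25) and Baiap2 (0.25), against a median of 0.56. All 5 had lower values in knockout skin, by -0.41 to -0.84 on the log2 scale, and none passed limma's test. The measure includes the genotype difference, so it favours genes that differ in the same direction. Cd1d1 itself differed by -0.86. Adh7 came near that at -0.84, and the others differed less, by -0.41 to -0.60. For Psap probe set A the closest were Abcf1 (0.06), Jak3 (0.06), Gnai2 (0.06), Necap2 (0.06) and Eif3b (0.07), against a median of 0.29.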

How the data were processed

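Expression was measured in skin of 9 mice, each on its own array. Signals were made with Microarray Suite 5.0 (MAS5), per the labels. The deposited values are natural log signals: their exponentials are whole multiples of 0.1 to within 0.002 in 100% of values, and the mean signal trimmed by 2% at each end is 200.1 in every array, so the authors' values had been scaled. These values were turned into log2 values and not normalised again. Detection calls were not used here. Control probe sets (66) were left out. Gene names came from the platform annotation, updated through Entrez identifiers (10817 of 10833 probe sets with 1 gene matched the RefSeq table). A gene stood for its brightest kept probe set.

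Tests used limma 3.58.1 in R 4.3.3 (lmFit, eBayes with a mean-variance trend) over all kept probe sets. The procedure was tested on simulated data. Named genes were all member probe sets, up to 4 genes per list with the smallest p, and the 5 likest profiles. Lamp1, Ctsl, Apob, Marco, Krt5, Krt14, Krt15, Abca1 and Cd3e were added after their values were seen. The members and lists were chosen with earlier results of these data known. Signals of different probe sets have no common scale, so levels were not compared between them, and the Psap ratios serve to compare groups only. An array has no read depth, and the number of arrays limits the precision. Alternatives covered the filter, normalization, pseudocounts of 16 and 64, variance model, covariates and arrays left out.

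Array numbers of the labels were checked as pairs: the deviations of same-numbered knockout and wild-type arrays correlated at -0.05 to 0.11. Such low values show no common deviation. They cannot exclude a pairing of the mice, because other differences between mice can mask one.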

Additional observations from a re-analysis of the deposited data

Results flagged for a closer look

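In the kept Hexa probe set knockout 4 read 554.6, far above the other knockout mice (340.8 to 381.1). On the log2 scale the gap to its neighbour was 0.77 of the whole range of the group, beyond the 95% critical value for 5 samples. This was the 1 such value among 28 groups checked (14 probe sets in 2 genotypes), and chance gives about 1 in 20. In the second Hexa probe set, which lay below the filter, knockout 4 had the lowest value of all mice, 2.1.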

How the results depend on the processing

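Among the member probe sets 0 passed limma's adjusted threshold in any alternative. Cd1d1 kept its direction in all 22, from -0.97 (without knockout 3) to -0.47 (pseudocount 64), with a limma adjusted p between 0.114 and 0.998. At the 60th percentile filter it was not kept. Over the whole table the count of 4 became 7 with pseudocount 64, 9 with array weights, 1 with the hair follicle covariate, 7 between the 7-decimal arrays, 0 between the 9-decimal arrays (156 at an unadjusted p under 0.05, with 1 wild-type mouse assumed to vary like the knockout mice) and 0 in the two-sample test with unequal variances (581 at an unadjusted p under 0.05). Leaving out 1 array gave 4 to 8, with 7 without knockout 2, 7 without knockout 3 and 8 without knockout 4. The replicate block, whose numbers are not known to pair the mice, gave 1 and moved no member past the threshold. The partner median without Cd1d1 stayed between -0.20 and -0.11, with -0.20 without knockout 1, and over all left-out arrays it ran from -0.20 to -0.11. With Cd1d1 the median was -0.22 with median centring and -0.22 between the 9-decimal arrays. With no filter it was -0.14, but there Mttp was counted too, which made 8 partners. At the 60th percentile filter, which left out Cd1d1, the median of -0.14 was that of the partners alone. With 1 array left out it ran from -0.21 to -0.14. Direction turned in some alternatives for Psap B, Gm2a, Npc1, Ap3b1 and Mttp. Psap B read 0.068 between the 7-decimal arrays, and 0.014 without knockout 4 and 0.034 without wild type 1 (range without 1 array -0.14 to 0.034). Gm2a read 0.0096 with array weights and 0.18 between the 7-decimal arrays. Npc1 read 0.33 between the 9-decimal arrays. Ap3b1 read -0.0051 with median centring, -0.12 between the 9-decimal arrays, -0.00126 without knockout 3 and -0.028 without wild type 2 (range without 1 array -0.028 to 0.094). Mttp read -0.082 and -0.028 with pseudocounts 16 and 64, -0.47 with array weights, -0.23 between the 7-decimal arrays, -0.092 without knockout 3 and -0.71 without wild type 2 (range without 1 array -0.71 to 1.2). The cause was not tested. The Psap ratio of C to A, under alternatives added after seeing the data, stayed between 0.42 and 0.66 on the log2 scale. That of C to B was 0.67 without knockout 3, and that of B to A ran from -0.076 to 0.11, with -0.0091 without knockout 2, -0.026 without knockout 3, -0.076 without wild type 2 and -0.022 without wild type 3.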

Other observations

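Of 17 T, NK and NKT cell markers on the array, 5 were kept, 2 lower and 3 higher in knockout skin with a median of 0.02, and 0 passed limma's test after adjustment or at an unadjusted p under 0.05. The log2 differences of Cd4 (-0.08, SE 0.24), Zap70 (0.06, SE 0.25) and Cd3e (0.02, SE 0.57, added after its value was seen) lay near 0. Their errors were wide, most of all for Cd3e, so a difference in either direction is not excluded. Zbtb16, the transcription factor PLZF that directs NKT cells and is also made by other cells, averaged 265 ± 120 in knockout skin and 458 ± 269 in wild-type skin (SD, n = 5 and 4), with overlapping groups (log2 -0.70, SE 0.43, limma adjusted p = 0.651). Its wild-type values were high in wild type 3 and 4 (667.1 and 711) and lower in wild type 1 and 2 (250.9 and 201.7). Npc1 split these 4 mice in the same way, but the split was not particular to these genes. Abca1 read 328.3 and 380.5 in wild type 1 and 2, against 572.9 and 576 in wild type 3 and 4. Fasn split them the opposite way, at 1815.4 and 2509.1 against 555.8 and 521. Cd3g, part of the T cell receptor complex, averaged 44.6 ± 15.0 in knockout skin and 42.6 ± 16.2 in wild-type skin, at the level of the filter.

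Of the B cell markers 4 of 6 were kept, 2 lower and 2 higher in knockout skin, and 0 passed or had an unadjusted p under 0.05 in limma. Of 7 adipocyte markers 6 had higher values (median 0.19), and 0 passed limma's adjusted threshold. The lipase Lpl averaged 1276 ± 227 in knockout skin and 930 ± 167 in wild-type skin (0.46 on the log2 scale, limma adjusted p = 0.434). Fibroblast markers were split, with 4 of 9 lower and a median of 0.01, and sebaceous gland markers with 2 of 3 lower and a median of -0.03. Of 6 intestinal and hepatic genes of lipoprotein assembly, 0 were kept.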
